A study of Mus musculus with 6 samples.

Results

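The 6 cyclin-dependent kinase inhibitor genes described here are the Cip/Kip genes Cdkn1b and Cdkn1c and the Ink4 genes Cdkn2a, Cdkn2b, Cdkn2c and Cdkn2d, that is, the inhibitors of both families other than Cdkn1a. They were taken by name, as every probe set annotated to exactly 1 of them, which gave 7 probe sets, 2 for Cdkn1b and 1 for each other gene, among 18193 genes measured. Levels come from 3 Lig4mut and 3 wild-type (WT) arrays of haematopoietic stem cells (HSC). They are the CD150+CD48- fraction of KSL cells, sorted from marrow. The donors were Lig4mut mice and Lig4+/+ littermates, 6 to 8 weeks of age and born to intercrossed Lig4mut/+ parents. The labels do not say what the Lig4 mutation is, how it acts outside HSC, or whether an array holds RNA of 1 mouse or of a pool, so the p-values measure the spread between these arrays. Lig4 encodes the DNA ligase that closes breaks in non-homologous end joining.

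Cyclin-dependent kinases drive cells through the division cycle, and both inhibitor families hold them back. Cip/Kip proteins, p27 from Cdkn1b and p57 from Cdkn1c, bind kinases together with their cyclins, whereas Ink4 proteins bind the cyclin D partners Cdk4 and Cdk6 and keep the cyclin away. Adult HSC rest outside the cycle most of the time. In mice, p57 is needed for that rest and p27 can stand in for part of it, p18 from Cdkn2c limits HSC self-renewal, and the products of Cdkn2a limit self-renewal when Polycomb silencing fails.

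Cdkn2a makes unlike proteins from separate first exons, p16 (Ink4a), a kinase inhibitor, and p19 (Arf), which binds Mdm2 and so protects p53. The array has 1 probe set for the gene, and its level is not assigned to either product here. The windows around the annotated starts of both transcripts, from 250 bases before to 50 bases after each start (RefSeq, GRCm38.p6, minus strand), are shown since this is the gene whose genotypes separate below. Capitals mark the GC box GGGCGG or its reverse complement.
Cdkn2a, window of the upstream (Arf) first exon, chr4:89294570-89294869: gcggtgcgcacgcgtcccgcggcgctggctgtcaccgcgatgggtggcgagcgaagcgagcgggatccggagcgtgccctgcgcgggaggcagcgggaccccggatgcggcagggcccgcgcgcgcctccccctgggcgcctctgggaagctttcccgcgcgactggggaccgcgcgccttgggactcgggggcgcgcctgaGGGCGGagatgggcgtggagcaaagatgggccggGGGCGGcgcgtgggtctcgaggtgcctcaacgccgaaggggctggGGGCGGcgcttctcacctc
Cdkn2a, window of the downstream (p16) first exon, chr4:89282143-89282442: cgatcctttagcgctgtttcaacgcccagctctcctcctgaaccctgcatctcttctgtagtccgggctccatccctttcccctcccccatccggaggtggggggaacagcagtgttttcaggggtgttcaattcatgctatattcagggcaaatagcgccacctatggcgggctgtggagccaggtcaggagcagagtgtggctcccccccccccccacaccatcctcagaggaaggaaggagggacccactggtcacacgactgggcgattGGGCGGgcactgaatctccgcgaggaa
The upstream window has a GC content of 77.0% and 3 GC boxes, and the downstream window has 60.3% and 1 GC box. Of 32851 promoter windows of this length, 35.7% hold a GC box on either strand. The E2F motifs TTTCGCGC and TTTGGCGC and the forkhead motif GTAAACA, searched on both strands, had no match in these windows or in those of Cdkn1b, Cdkn2b, Cdkn2c and Cdkn2d, against 0.323%, 0.514% and 3.65% of all windows.

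Lig4 itself was set against the labels, which do not say whether the mutation lowers its transcript. It had log2 levels of 4.97, 3.16 and 3.10 in Lig4mut against 7.53, 6.66 and 7.63 in WT. Every Lig4mut array lay below every WT array, as for 5.65% of all genes. The difference was -3.53 ± 0.61 (SE) and did not pass the adjusted threshold of 0.05 (limma, adjusted p = 0.130). Of 8 measured HSC markers, among them Kit, Slamf1, Procr and Mecom, the mean level was 10.49, 9.52 and 10.28 in Lig4mut and 10.75, 10.84 and 10.65 in WT. Some arrays stood apart. Lig4mut replicate 2 had a mean of 10.81 over 10 granulocyte genes, against 6.32 and 6.94 in the other Lig4mut arrays and 7.85 to 8.88 in WT. Xist was high in Lig4mut replicate 2 (12.33) and WT replicate 3 (12.52) and lay at 4.84 to 5.82 on the other 4 arrays, which had the higher levels of the Y-linked genes Kdm5d, Eif2s3y and Uty. Neither split is named in the labels.

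None of the 6 inhibitor genes passed the threshold of 0.05 for an adjusted p over all genes (limma, adjusted p = 0.202 to 1.00), nor did any of the 7 probe sets in the fit of every probe set (adjusted p = 0.224 to 1.00). Over all genes 0.011% passed, and over all probe sets 0.00286%. At the unadjusted level 1 member, Cdkn2a, lay at p under 0.05 on the higher side, where 15.5% of all genes lay, and none on the lower side, where 4.18% lay. The Ink4 genes all had higher means in Lig4mut, by 0.34 to 0.60 (log2), and the Cip/Kip genes had lower ones, by 0.01 and 0.77. These signs held in each of 4 scalings of the arrays except for Cdkn1b, which had a difference of 0.28 after median centring and of 0.067 after cyclic loess. In the quantile normalized values the median difference of all genes was 0.18 and 62.9% of genes had a higher mean in Lig4mut. That median differed with signal, in 10 groups of genes cut by mean signal after the values were seen. The group of each Ink4 gene had a median of 0.39 (Cdkn2a), 0.31 (Cdkn2b), 0.29 (Cdkn2c) or 0.05 (Cdkn2d). For the groups of the Cip/Kip genes it was -0.15 (Cdkn1b) and -0.02 (Cdkn1c). The part of signal in the signs of the members was not tested. In bulk samples, fewer cells with a transcript and less of it per cell cannot be told apart.

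**Figure D1:**
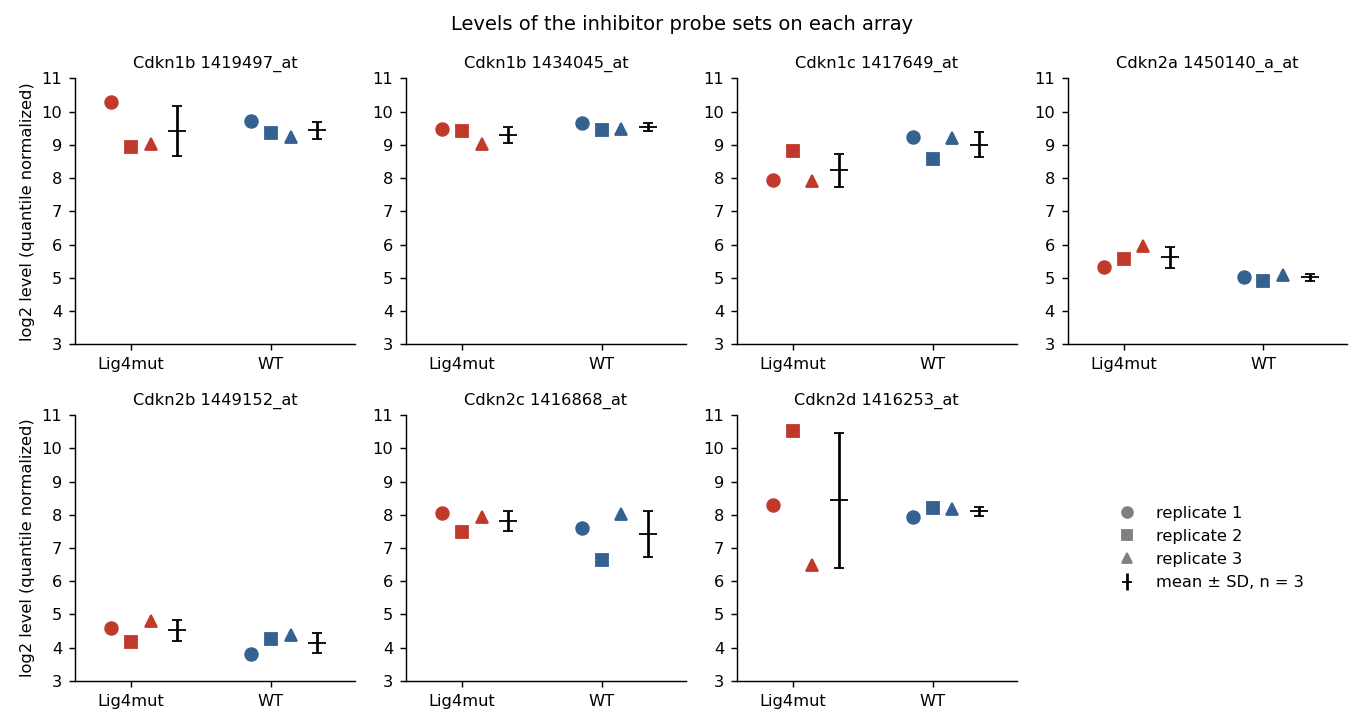
Quantile normalized log2 levels of the 7 inhibitor probe sets on each array, with Lig4mut left (red) and WT right (blue), 1 symbol per replicate, and the mean with its SD (n = 3) as a black bar. Only for Cdkn2a do all Lig4mut arrays lie above all WT arrays, and Cdkn2d spreads from 6.49 to 10.54 between the Lig4mut arrays.

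Cdkn1c, which encodes p57, had a lower mean in Lig4mut. In size its difference was the largest of the 6 genes in the quantile normalized values of all 6 arrays. It was not the largest with arrays centred on their medians, where Cdkn2a was at 0.63 and Cdkn1c at -0.53. Nor was it without Lig4mut replicate 1 (Cdkn2a 0.74, Cdkn1c -0.64) or without Lig4mut replicate 3 (Cdkn2d 1.31, Cdkn1c -0.62). Without WT replicate 3, Cdkn2c was at 0.70 and Cdkn1c at -0.67. The levels of Cdkn1c were 7.96, 8.81 and 7.92 in Lig4mut and 9.24, 8.56 and 9.21 in WT. Replicates 1 and 3 of Lig4mut lay below every WT array, and Lig4mut replicate 2 lay above WT replicate 2, so the genotypes overlapped. The mean was 8.23 ± 0.50 in Lig4mut and 9.004 ± 0.38 in WT (SD, n = 3 each), a difference of -0.77 ± 0.34 (SE), or 1.71-fold, with a 95% interval from -1.63 to 0.08 (limma, adjusted p = 0.291). An exact two-sided permutation test of the probe set gave p = 0.2, where 3 arrays against 3 allow no p below 0.1. In absolute size 23.2% of all genes differed at least as much. Without Lig4mut replicate 2, the array with the high granulocyte genes, the difference was -1.07 (limma, adjusted p = 0.186), and without WT replicate 2 it was -0.996. Without any other single array it was smaller than with all 6, at -0.67 to -0.62. Of 8 measured HSC markers 6 had lower and 2 higher means in Lig4mut, and none passed the adjusted threshold. Every Lig4mut array lay below every WT array for 4 of the 8, against 5.65% of all genes, and the summed level of the list was 12.69 to 13.65 (log2) in Lig4mut and 13.81 to 13.98 in WT. The part of the HSC share in the level of Cdkn1c was not tested.

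Cdkn1c lies on chromosome 7 (143458339 to 143461059, GRCm38.p6) in an imprinted domain, where in mice the maternal copy is expressed and the noncoding RNA Kcnq1ot1 of the paternal copy silences its neighbours. Of 12 measured genes of this domain and of the adjoining one of Igf2, none passed the threshold, with 7 higher and 5 lower means and a median difference of 0.15. Kcnq1ot1 itself had 9.23, 10.28 and 9.83 in Lig4mut and 10.08, 10.64 and 10.52 in WT, a difference of -0.63 ± 0.32 (SE; limma, adjusted p = 0.35), with 5 of its 6 probe sets lower. The placental gene Phlda2 differed by 0.70 ± 0.30 (limma, adjusted p = 0.28), the growth factor gene Igf2 by -0.85 ± 0.47 (adjusted p = 0.38) and Ascl2, a transcription factor gene, by 0.45 ± 0.13 (adjusted p = 0.175). Of 3 probe sets of Ascl2, 1 was lower. The nearest measured genes on either side of Cdkn1c, Kcnq1 and Slc22a18, had differences of 0.34 ± 0.25 and 0.45 ± 0.45.

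Cdkn1b, which encodes p27, had nearly equal means in both genotypes. The probe set that represents the gene had levels of 10.29, 8.94 and 9.03 in Lig4mut and 9.72, 9.35 and 9.22 in WT. The highest of the 6 arrays and the lowest were both Lig4mut arrays. The difference was -0.01 ± 0.42 (SE), with a 95% interval from -1.07 to 1.04 (limma, adjusted p = 1.00), which leaves room for a difference of about a doubling either way. The other probe set, with levels of 9.47, 9.40 and 9.04 in Lig4mut and 9.67, 9.46 and 9.48 in WT, differed by -0.23 ± 0.16 (limma over all probe sets, adjusted p = 0.529). In that probe set the lowest array was Lig4mut replicate 3, while in the first it was Lig4mut replicate 2, and Lig4mut replicate 1 lay within the WT range, so the high level of replicate 1 was seen by 1 of the 2 probe sets. With the mean of both probe sets the difference was -0.12 (limma, adjusted p = 0.83). For the first probe set it was -0.44 without Lig4mut replicate 1, 0.23 without Lig4mut replicate 2, 0.18 without Lig4mut replicate 3 and 0.13 without WT replicate 1.

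Cdkn2a was the gene whose genotypes did not overlap. It had levels of 5.33, 5.56 and 5.95 in Lig4mut and 5.03, 4.90 and 5.10 in WT, so every Lig4mut array lay above every WT array. The mean was 5.61 ± 0.31 in Lig4mut and 5.01 ± 0.10 in WT (SD, n = 3 each), a difference of 0.60 ± 0.20 (SE), or 1.52-fold, with a 95% interval from 0.10 to 1.10 (limma, adjusted p = 0.202). The exact two-sided permutation test gave p = 0.1, the smallest this design allows. Such a separation upwards held for 21% of all genes and a separation downwards for 5.65%, and 1 of the 6 members had the first and none had the second.

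The signal of Cdkn2a was dim, and the difference of a dim gene depended on the scaling of the arrays. When genes were cut by mean signal into 10 groups of equal number, a division chosen after the values were seen, Cdkn2a fell into group 3 from the dimmest. The 1819 genes of that group had a median difference of 0.39, and 37.4% of them had every Lig4mut array above every WT array. In the values as deposited, Cdkn2a had 5.23, 5.38 and 5.77 in Lig4mut and 5.18, 5.05 and 5.22 in WT. There the lowest Lig4mut array lay 0.0069 above the highest WT array, the difference was 0.31 ± 0.19 (SE; limma, adjusted p = 0.557), and 10.7% of all genes had the same separation. Relative to the median of all genes in each scaling, Cdkn2a differed by 0.42 in the quantile normalized values, 0.29 as deposited, 0.29 with arrays centred on their medians and 0.32 with cyclic loess.

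Markers of several other cell types also had higher means in Lig4mut in the quantile normalized values, with none past the adjusted threshold. For macrophages and dendritic cells, 7 of 10 genes had every Lig4mut array above every WT array, against 21% of all genes, and the summed level of the list was 12.73 to 13.16 (log2) in Lig4mut and 11.64 to 12.38 in WT. Of 8 measured B cell genes 4 were separated in this way, with overlapping summed levels of 10.17 to 11.49 in Lig4mut and 9.86 to 10.21 in WT. Of 6 endothelial genes 6 had higher means and 2 were separated, with a median difference of 1.15 and overlapping summed levels of 12.53 to 13.40 in Lig4mut and 11.03 to 12.68 in WT. Of 6 measured T and NK cell genes 6 had higher means and 1 was separated (median difference 0.55), with summed levels of 8.60 to 10.94 in Lig4mut and 8.25 to 9.26 in WT. Of 6 stromal genes 5 had higher means and 1 was separated (median difference 0.55), with summed levels of 8.95 to 11.45 in Lig4mut and 9.18 to 10.81 in WT. No gene of these lists was at the floor on every array. The part of such cells in the level of Cdkn2a was not tested.

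**Figure D2:**
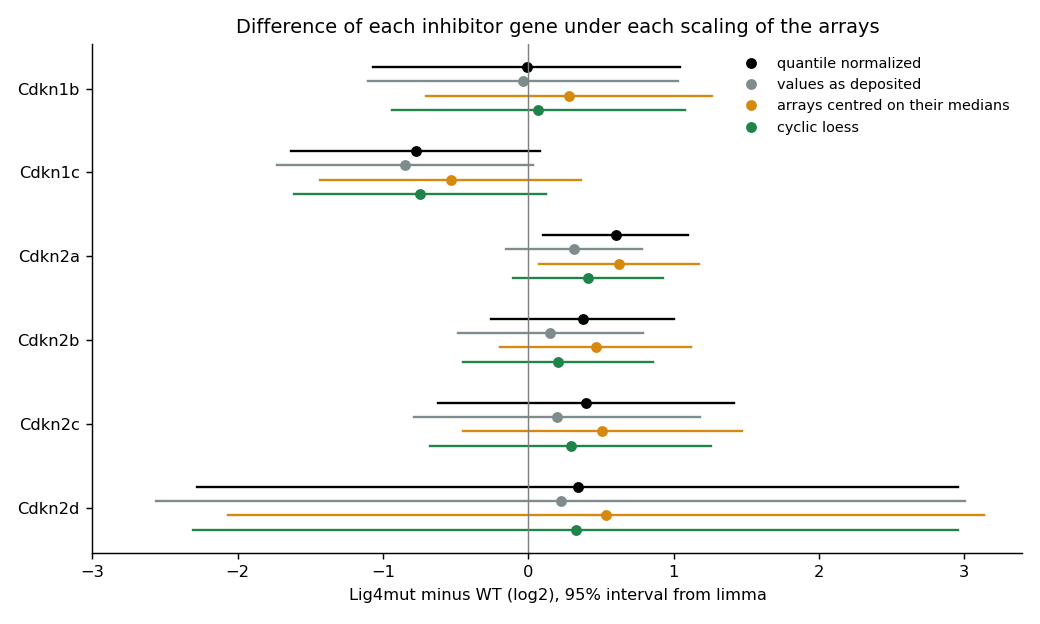
Difference between Lig4mut and WT (log2, horizontal axis) for each inhibitor gene, with a point for the estimate and a line for its 95% interval from limma, in 4 scalings of the arrays. Cdkn1c lies below 0 and the Ink4 genes above 0 in each scaling, the interval of Cdkn2a leaves out 0 in 2 of the 4, and Cdkn1b changes sign.

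Cdkn2b, whose product p15 is induced by TGF-beta in several cell types, lies 11669 bases from Cdkn2a on chromosome 4. Its levels were 4.59, 4.17 and 4.79 in Lig4mut and 3.80, 4.26 and 4.38 in WT, close to the floor of 3 that the deposited values have, without reaching it on any array. Lig4mut replicate 2 lay below WT replicates 2 and 3, and the genotypes overlapped. The difference was 0.37 ± 0.25 (SE), with a 95% interval from -0.26 to 1.01 (limma, adjusted p = 0.462). As deposited it was 0.15 (limma, adjusted p = 0.842), and without WT replicate 1 it was 0.20. The genes of its own signal group, group 2 from the dimmest, had a median difference of 0.31. On the other side of Cdkn2a lies Mtap, a gene of methionine salvage, with a difference of -0.49 ± 0.49 (limma, adjusted p = 0.62).

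Cdkn2c, which encodes p18, had levels of 8.05, 7.47 and 7.92 in Lig4mut and 7.59, 6.65 and 8.02 in WT. The genotypes overlapped, and WT replicate 2 was the lowest of the 6 arrays. The difference was 0.40 ± 0.40 (SE), with a 95% interval from -0.62 to 1.41 (limma, adjusted p = 0.631). It rested on WT replicate 2, without which the difference was 0.01 (limma, adjusted p = 1.00), and it was 0.70 without WT replicate 3.

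Cdkn2d, which encodes p19 (Ink4d), had similar levels in WT and very unlike ones in Lig4mut. It had 8.28, 10.54 and 6.49 in Lig4mut and 7.94, 8.19 and 8.16 in WT. Lig4mut replicate 2 lay far above all WT arrays, Lig4mut replicate 1 just above them and Lig4mut replicate 3 below all of them. The SD was 2.02 in Lig4mut and 0.14 in WT (n = 3 each), where 3.26% of all genes had an SD at least as large between the Lig4mut arrays and 78.5% between the WT arrays. The difference of the means, 0.34 ± 1.03 (SE; limma, adjusted p = 0.894), had a 95% interval from -2.28 to 2.95 and so says little. It was -0.71 without Lig4mut replicate 2 and 1.31 without Lig4mut replicate 3 (limma, adjusted p = 0.555 and 0.395).

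**Figure D3:**
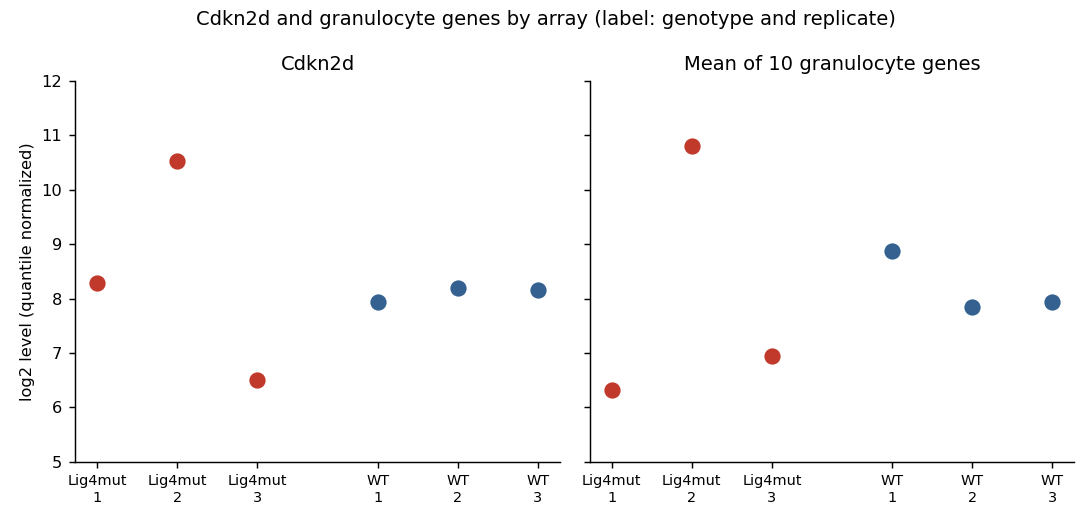
Log2 levels of Cdkn2d (left) and the mean of 10 granulocyte genes (right) on each array, with Lig4mut in red and WT in blue. Lig4mut replicate 2 is highest in both panels, at 10.54 and 10.81, and the lowest array is Lig4mut replicate 3 for Cdkn2d and Lig4mut replicate 1 for the granulocyte genes.

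The array with the highest Cdkn2d was also the one with the highest granulocyte transcripts. That was not particular to granulocytes. Lig4mut replicate 2 also had the highest summed levels of the macrophage and dendritic cell (13.16), T and NK cell (10.94) and megakaryocyte (12.72) lists. The same held for the endothelial (13.40) and stromal (11.45) lists, and its HSC sum was the lowest (12.69). For B cell, erythroid and outside-gate progenitor markers another array was highest. Of the 10 granulocyte genes, 5 had higher and 5 lower means in Lig4mut, with differences from -2.89 to 1.79. Among the lower was the granule enzyme gene Mpo, with 5.52, 12.34 and 6.19 in Lig4mut and 10.75, 6.80 and 9.56 in WT. Also lower was S100a9, a calcium-binding protein gene of neutrophils, with 6.00, 13.14 and 6.49 in Lig4mut and 11.26, 11.69 and 11.35 in WT. The summed signal of the list was 10.18, 14.84 and 10.88 on the log2 scale in Lig4mut and 13.06, 12.83 and 12.50 in WT, and no gene of it was at the floor on every array. In the other 2 Lig4mut arrays the mean and the summed signal of the granulocyte list lay below every WT array. Cdkn2d lay above every WT array in Lig4mut replicate 1 and below every WT array in Lig4mut replicate 3. The part of granulocytes or of the other cell types in the level of Cdkn2d was not tested.

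**Figure D4:**
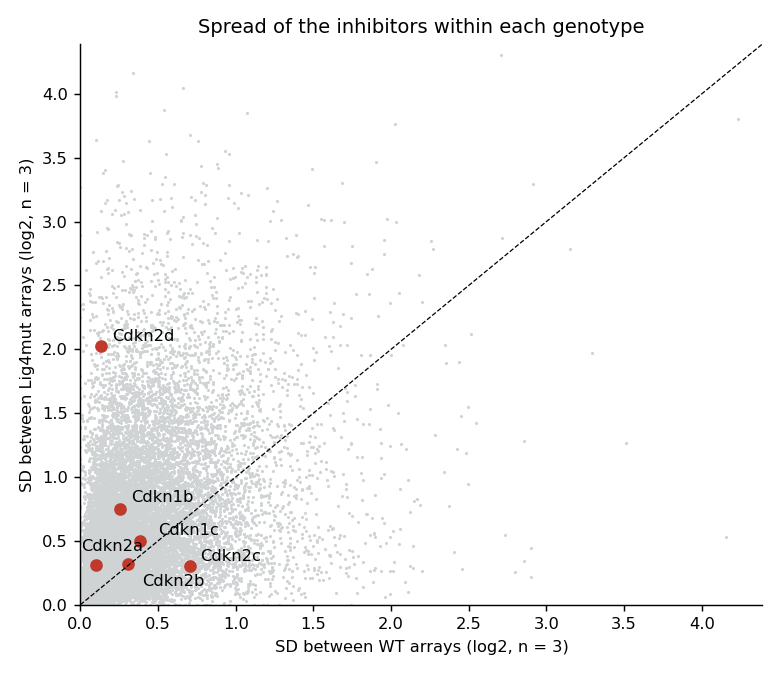
SD of each gene between the WT arrays (horizontal axis) and between the Lig4mut arrays (vertical axis), in log2 and over 3 arrays each, with all genes in grey, the 6 inhibitors in red and a dashed line where both are equal. Cdkn2d lies far above the line, at 2.02 against 0.14, and Cdkn2c below it, at 0.30 against 0.70.

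For the other inhibitors, 30.3% (Cdkn1b) to 66.8% (Cdkn2c) of all genes had an SD at least as large between the Lig4mut arrays. The median SD of all genes was 0.45 in Lig4mut and 0.28 in WT. Cdkn1b had 0.75 and 0.26, Cdkn1c 0.50 and 0.38, Cdkn2a 0.31 and 0.10, and Cdkn2b 0.32 and 0.31, each with the Lig4mut value first. Cdkn2c was the gene with the smaller spread in Lig4mut, 0.30 against 0.70 in WT. Between the WT arrays 13.6% of all genes had an SD at least as large as that of Cdkn2c. The genes of its own signal group had a median SD of 0.77 in Lig4mut and 0.45 in WT. For the signal group of Cdkn1b these medians were 0.68 and 0.33.

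Within the 4 arrays low in Xist, a comparison added after the data were seen, the Lig4mut replicates 1 and 3 could be set against WT replicates 1 and 2. There Cdkn1c differed by -0.96 ± 0.31 (SE; limma, adjusted p = 0.349), Cdkn2a by 0.67 ± 0.29 (adjusted p = 0.403), Cdkn2b by 0.67 ± 0.25 (adjusted p = 0.37) and Cdkn2c by 0.87 ± 0.41 (adjusted p = 0.427). Cdkn1b was at 0.12 and Cdkn2d at -0.68. Between the 2 arrays high in Xist, with no replicate, Lig4mut minus WT was -0.40 for Cdkn1c, 0.46 for Cdkn2a, -0.28 for Cdkn1b and 2.37 for Cdkn2d. For Cdkn2b and Cdkn2c it was -0.21 and -0.55, opposite in sign to the other 4 arrays. With 1 array of each genotype high in Xist, the difference between the Xist classes could not be estimated closely: the 95% interval of its term in limma reached 1.34 (Cdkn2b) to 3.97 (Cdkn2d) to either side of the estimate, and no statement on it is made.

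The targets of the inhibitors showed no gene past the threshold. Of 11 kinases and cyclins 6 had higher and 5 lower means, with a median difference of 0.03. Cdk4, a kinase that Ink4 proteins bind, had 11.27, 10.90 and 10.41 in Lig4mut and 11.16, 11.31 and 11.13 in WT. The difference was -0.34 ± 0.25 (SE; limma, adjusted p = 0.50), lower in each of its 3 probe sets. Cdk6, which Ink4 proteins also bind, differed by 0.03 ± 0.24 (limma, adjusted p = 0.97), with 2 of its 3 probe sets higher. The mitotic kinase gene Cdk1 differed by 0.54 ± 0.27 (limma, adjusted p = 0.34), with every Lig4mut array above every WT array. That separation held for 1 of the 11 genes, against 21% of all genes. Ccne2, a cyclin of the entry into S phase, differed by -1.36 ± 0.75 (limma, adjusted p = 0.38). Downstream of the kinases stand the pocket proteins and E2F factors, of which 5 had higher and 8 lower means and 2 of 13 lay at an unadjusted p under 0.05 on the lower side, against 4.18% of all genes, and none on the higher side. These were Rbl2, the pocket protein p130 of resting cells, with 7.85, 7.89 and 6.87 in Lig4mut and 9.36, 9.02 and 9.33 in WT (difference -1.70 ± 0.33 SE; limma, adjusted p = 0.136), and Tfdp1, the partner of E2F factors, with a difference of -0.65 ± 0.17 (adjusted p = 0.16).

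**Figure D5:**
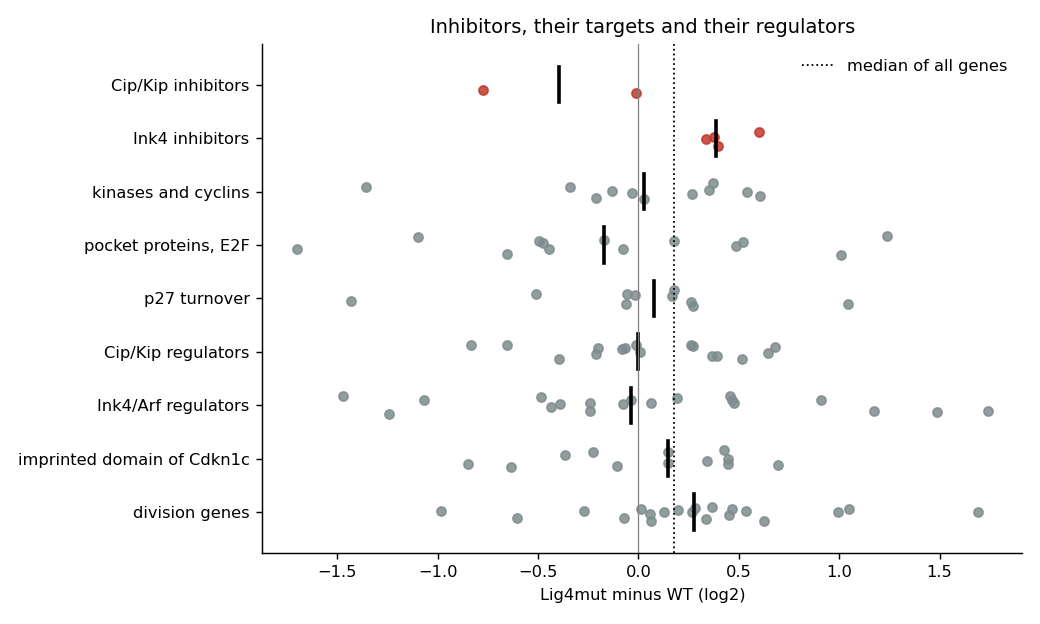
Difference between Lig4mut and WT (log2) of each measured gene of 9 lists, 1 point per gene, with the 6 inhibitors in red, a black bar at each list's median and a dotted line at the median of all genes. The Ink4 genes lie between 0.34 and 0.60, and the targets and regulators spread to both sides of 0.

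Genes that set the amount of the inhibitors also gave none past the threshold. Among 10 genes of p27 turnover, the ubiquitin ligase gene Skp2 differed by -1.43 ± 1.64 (SE). It had 3.28, close to the floor of 3, in Lig4mut replicate 2 against 9.16 and 8.55 in the other Lig4mut arrays and 8.12 to 8.62 in WT. Of 6 probe sets of Skp2, 1 was higher, and the mean difference over the 6 was -0.68. Its cofactor gene Cks1b differed by 0.27 ± 0.26, and Cul4a, a scaffold of another ubiquitin ligase, by -0.51 ± 0.20 (limma, adjusted p = 0.244). Among 16 measured regulators of Cip/Kip genes, 8 had higher and 8 lower means, Foxo1 differed by -0.83 ± 0.69 and Smad3 by -0.66 ± 0.26 (limma, adjusted p = 0.56 and 0.253). Of 3 probe sets of Smad3, 2 went the other way. Of 4 probe sets of Foxo1, 1 was higher, and the mean difference over the 4 was -0.04.

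The Ink4/Arf locus is kept silent by Polycomb complexes. Of 19 genes on the list of its regulators 9 had higher and 10 lower means, with 3 and 2 at an unadjusted p under 0.05, against 15.5% of all genes on the higher side and 4.18% on the lower, and a median difference of -0.04. Ezh2, the methyltransferase of Polycomb complex PRC2, had 9.79, 10.10 and 10.49 in Lig4mut and 9.35, 9.34 and 8.96 in WT (difference 0.91 ± 0.24 SE; limma, adjusted p = 0.157). Jdp2, an AP-1 family gene, differed by -1.47 ± 0.38, Pcgf2 by 1.17 ± 0.32 and Rnf2, which encodes the RING1B ligase, by -1.07 ± 0.35 (limma, adjusted p = 0.16, 0.16 and 0.20). Their probe sets disagreed, with 1 of 2 higher for Jdp2 and for Pcgf2 and 3 of 5 higher for Rnf2. For division genes, 16 of 20 had higher means, against 62.9% of all genes, with a median difference of 0.28. At an unadjusted p under 0.05 lay 1 of the 20, on the higher side where 15.5% of all genes lay, Bub1b at 1.69 ± 0.26 (limma, adjusted p = 0.125), while Mki67 was at -0.27 ± 0.20 (adjusted p = 0.50).

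The genes with the most alike pattern were found by the root mean square difference over the 6 arrays, each gene set to its own mean, among 9093 or 9094 genes of at least the median mean signal with no array at the floor. For Cdkn1b they were Bcas2 (0.10) and Suco (0.11), for Cdkn1c Zfp638 (0.13) and Atxn2 (0.14), and for Cdkn2a Fuca2 (0.07) and P2rx6 (0.07). For Cdkn2b they were Sppl2b (0.07) and Mrps7 (0.10) and for Cdkn2c Myo9a and Gpatch2 (0.16 each). For Cdkn2d they were Alkbh2 (0.18), with 7.54, 9.83 and 5.52 in Lig4mut and 7.18, 7.01 and 7.07 in WT, and Tax1bp3 (0.32). The median difference to the genes of this pool was 0.65 to 0.78 for 5 of the members and 1.29 for Cdkn2d.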

How the data were processed

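RNA of sorted HSC was measured on 1-colour expression arrays, 3 Lig4mut and 3 WT. The authors deposited 1 log2 level for each probe set and array, and the submitters' processing notes name RMA. The lowest is exactly 3 on every array. Per the labels, the design text and the labelling protocol name different amplification methods. Array medians were 5.97 to 6.05 in Lig4mut and 6.29 to 6.34 in WT, so values were quantile normalized over 45101 probe sets. Of these, 34945 name 1 gene in the platform annotation, and symbols were updated through gene identifiers to RefSeq (GRCm38.p6). Where a gene had several probe sets, the brightest over the 6 arrays stood for it, which left 18193 genes. Lig4mut minus WT was fitted in R 4.3.3 by limma 3.58.1, with eBayes moderation, two-sided p-values and Benjamini-Hochberg adjustment over all genes at a threshold of 0.05, after the script was tested on simulated data. Arrays have no sequencing depth, and their number limits the precision. Of each pathway list up to 4 genes with the smallest p were eligible to be named, and others were named after their values were seen. The members and lists were chosen with earlier results of these data known. Alternatives covered scaling, replicates, probe sets, dim genes, variance moderation and sex-linked genes.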

Additional observations from a re-analysis of the deposited data

How the results depend on the processing

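None of the 6 inhibitors passed the adjusted threshold in the values reported or under any alternative tried, including every probe set on its own and a threshold of 0.1. Cdkn1c kept its sign under 16 alternatives (-1.07 to -0.53, limma, adjusted p = 0.186 to 0.529), and Cdkn2a under 15 (0.31 to 0.74, adjusted p = 0.146 to 0.557). Cdkn2b (0.15 to 0.67, 15 alternatives) and Cdkn2c (0.01 to 0.87, 16 alternatives) did so too. With dim genes left out, Cdkn2a and Cdkn2b were not tested. Cdkn1b turned to 0.28 with arrays centred on their medians, 0.067 with cyclic loess, 0.026 with array weights, 0.028 with sex-linked genes as covariate and 0.12 in the arrays low in Xist, and its other probe set to 0.073 with centred arrays. With 1 array left out Cdkn1b ranged from -0.44 to 0.23 and Cdkn2d from -0.71 to 1.31, and Cdkn2d was at -0.68 in the arrays low in Xist. The cause was not tested. Over all genes 2 passed the threshold, against 0 with the replicate block (2868 at an unadjusted p under 0.05), without any 1 array (range 0 to 0), with dim genes left out, with the mean of probe sets (3795), with sex-linked genes as covariate (3311) or in the arrays low in Xist (2597), 4 with a variance trend and robust moderation, and 1 with every probe set tested. The genes at an unadjusted p under 0.05 numbered 3586, 78.8% of them higher, against 2211 (55.2%) as deposited and 2376 (66.4%) with cyclic loess, and the share was 87.6% with centred arrays. The count was 1449 with dim genes left out, 6106 of 34945 with every probe set, and 2301 to 4096 with 1 array left out, the lowest without WT replicate 2. The labels do not say whether same-numbered arrays shared more than a number. The correlation of their deviations, -0.03 to 0.04, cannot show what they shared. The replicate block gave Cdkn2a an unadjusted p by limma of 0.047 and an adjusted p of 0.31.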

Other observations

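The nearest measured gene beyond Cdkn1b on chromosome 6 is Lockd, a noncoding RNA gene named for its place downstream of Cdkn1b. It had 3.21, 7.71 and 3.08 in Lig4mut and 6.30, 4.23 and 5.14 in WT (log2), a difference of -0.56 ± 1.44 (SE; limma, adjusted p = 0.87). Its levels in Lig4mut replicates 1 and 3 were close to the floor of 3. Its highest array, Lig4mut replicate 2, was the array with the lowest level of the probe set that represents Cdkn1b. In the other probe set of Cdkn1b the lowest array was Lig4mut replicate 3. Among the WT arrays, replicate 1 was the highest for both Lockd (6.30) and the first probe set of Cdkn1b (9.72).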
